A study of Mus musculus with 9 samples.

Results

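The miR-15/16 family, with miR-195a and miR-497a, was followed in exosomal small RNA of TCMK-1 cells. Its members were taken by name from the deposited table as mmu-miR-15a-5p, mmu-miR-15b-5p, mmu-miR-16-5p, mmu-miR-195a-5p, mmu-miR-195a-3p and mmu-miR-497a-5p (the mouse prefix mmu is left out from here on), 6 of the 1978 mature miRNAs listed, by a rule on names that uses no measured value. TCMK-1 is an established line of mouse renal tubular epithelial cells of C3H background, and every culture carried a lentivirus added at 100 infectious units per cell. H/R-LV-BMAL1 cells carried a BMAL1 transgene driven by the CMV promoter and went through hypoxia/reoxygenation (H/R), in exosome-free medium, with 24 h of hypoxia at 1% O2 before 12 h of reoxygenation at 21% O2. H/R-LV-NC cells carried the empty vector and went through the same H/R, and LV-NC cells carried the empty vector in normal culture. The comparisons made were the BMAL1 comparison (H/R-LV-BMAL1 over H/R-LV-NC), the combined comparison (H/R-LV-BMAL1 over LV-NC) and the H/R comparison (H/R-LV-NC over LV-NC). There were 3 libraries for each of these 3 groups, and no group of BMAL1-overexpressing cells without H/R. BMAL1 is the core transcription factor of the circadian clock, and the series asked how it alters the miRNAs that tubular cells release in exosomes, the small vesicles collected here from the medium by ultracentrifugation.

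A miRNA guides its silencing complex to messenger RNAs mainly through its seed, the bases near its 5′ end that pair with the target. miRNAs with the same seed can repress many of the same messages, whatever gene they come from. The miR-15/16 family is known for holding back the cell cycle through cyclins, cyclin-dependent kinases and checkpoint kinases, and for repressing the survival factor BCL2. miR-16 is also among the most abundant miRNAs of many cells and of body fluids, red blood cells included. In the mouse heart, family members rise after birth as muscle cells leave the cell cycle.

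The sequences below show what the members share and where they part, with bases 2 to 8 of each in capitals. They were taken from RefSeq (GRCm38.p6).
mmu-miR-15a-5p: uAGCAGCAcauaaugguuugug
mmu-miR-15b-5p: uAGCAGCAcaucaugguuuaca
mmu-miR-16-5p: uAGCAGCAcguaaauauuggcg
mmu-miR-195a-5p: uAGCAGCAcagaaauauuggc
mmu-miR-497a-5p: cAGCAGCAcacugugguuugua
mmu-miR-195a-3p: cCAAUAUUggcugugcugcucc
The first 5 carry the same capitals, AGCAGCA, and differ only outside them. miR-195a-3p is the opposite arm of the miR-195a hairpin and has another seed. miR-16-5p and miR-195a-5p are the closest pair, with 2 of 21 bases different, G10A and U11G from miR-16-5p to miR-195a-5p when counted from the 5′ end. miR-497a-5p differs from miR-195a-5p at 9 of 21 bases, although both come from the same locus, and miR-15a-5p differs from miR-15b-5p at 4 of 22.

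The members come from 3 loci (GRCm38). miR-15a-5p lies at chr14:61632075-61632096 on the minus strand, beside the Mir16-1 hairpin, inside the gene of the long RNA Dleu2 (chr14:61602839-61682373) but in none of its annotated exons. miR-15b-5p lies at chr3:69009775-69009796 on the plus strand, beside Mir16-2, inside Smc4 (chr3:69004738-69034623), a condensin subunit gene, and again in none of its exons. miR-497a-5p and miR-195a-5p lie at chr11:70234730-70234751 and chr11:70235062-70235082 on the plus strand, and miR-195a-3p at chr11:70235100-70235121. miR-16-5p is made from Mir16-1 (chr14:61631936-61631957) and from Mir16-2 (chr3:69009918-69009939) with the same sequence, so its count could not be divided between these 2 loci.

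Levels are given as CPM (counts scaled to a common library total), which relate the unique molecular identifiers (UMIs, 1 for each captured RNA molecule) of a miRNA to all miRNA UMIs of its library. The totals ran between 3357851 and 4057046 UMIs for H/R-LV-BMAL1, between 807158 and 1447040 for H/R-LV-NC and between 977490 and 1147768 for LV-NC, so depth and the BMAL1 group cannot be told apart. Of 9 epithelial and kidney tubule miRNAs listed as markers, all 9 were detected in each group, with a summed level of 9711 to 11257 CPM in H/R-LV-BMAL1, 6819 to 7003 CPM in H/R-LV-NC libraries and 5788 to 8672 CPM in LV-NC ones. Most of this was miR-30a-5p, with means of 10106.5, 6592 and 6712 CPM in that order. The miR-200 family markers (miR-200a-3p, miR-200b-3p, miR-200c-3p, miR-141-3p and miR-429-3p) and miR-204-5p were scarce. Their means were 3.46 to 9.75, 5.53 to 22.5 and 2.81 to 10.7 CPM, each lower in H/R-LV-BMAL1 than in H/R-LV-NC. miR-30a-5p, miR-192-5p and miR-194-5p were higher there. The 3 red blood cell markers summed to 108 to 142 CPM in H/R-LV-BMAL1, 241 to 316 CPM in H/R-LV-NC libraries and 249 to 322 CPM in LV-NC ones. miR-486a-5p made up most of that sum, with means of 111, 248 and 256 CPM in that order. The 2 neuronal markers reached 2720 CPM in an H/R-LV-BMAL1 library and 338 CPM in an H/R-LV-NC library, against 19.2 CPM at most in LV-NC libraries, with 151 CPM as the lowest value in H/R-LV-BMAL1 libraries. The endothelial marker miR-126a-3p had 493 to 771 CPM in H/R-LV-BMAL1, 292 to 442 CPM in H/R-LV-NC libraries and 302 to 330 CPM in LV-NC ones, and the 3 white blood cell markers summed to 118 to 121 CPM in H/R-LV-BMAL1, 185 to 223 CPM in H/R-LV-NC libraries and 132 to 163 CPM in LV-NC ones. The 3 muscle markers summed to 2901 to 3103 CPM in H/R-LV-BMAL1, 2405 to 3197 CPM in H/R-LV-NC libraries and 2438 to 2620 CPM in LV-NC ones, and the liver marker had 81.8 to 104.5 CPM in H/R-LV-BMAL1, 54.5 to 115 CPM in H/R-LV-NC libraries and 116 to 176 CPM in LV-NC ones. The part of these other cell types in any result was not tested.

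The members differed in counted level far more than the groups did. Their mature lengths were 21 to 22 bases, but whether each sequence was captured equally well was not tested. Levels of different members are therefore set side by side as counted. miR-16-5p ranked 4 or 5 of all listed miRNAs in every library, and miR-15b-5p ranked 60 to 74. In LV-NC libraries the mean levels ran from miR-16-5p at 59000 ± 882 CPM through miR-15b-5p at 1210 ± 150, miR-15a-5p at 162 ± 6.91, miR-195a-5p at 119.5 ± 21.6 and miR-497a-5p at 51.6 ± 15 to miR-195a-3p at 16.9 ± 2.47 CPM (SD, n = 3). No 2 neighbours in that order overlapped in any group. The order itself differed between groups at 1 place: miR-195a-5p lay above miR-15a-5p in 3 of 3 H/R-LV-BMAL1 libraries, and miR-15a-5p lay above miR-195a-5p in all 3 H/R-LV-NC and all 3 LV-NC libraries.

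In H/R-LV-BMAL1 exosomes, the members of the chromosome 11 locus were about 2 times as high in CPM as in H/R-LV-NC exosomes, and the 5p members of the other loci were higher by far less or not at all. miR-195a-5p, known as an inducer of cell-cycle exit, had 877, 968 and 1100 UMIs in H/R-LV-BMAL1 libraries, against 171, 100 and 175 UMIs in H/R-LV-NC libraries and 94, 135 and 143 UMIs in LV-NC libraries. These counts correspond to 261, 268 and 271 CPM in H/R-LV-BMAL1, 127, 124 and 121 CPM in H/R-LV-NC libraries, and 95.9, 138 and 125 CPM in LV-NC libraries. In CPM, the 3 H/R-LV-BMAL1 values lay close together and above all 6 others, and the H/R-LV-NC values fell inside the LV-NC range. These are bulk exosome preparations, in which more vesicles carrying a miRNA and more of it in each vesicle cannot be told apart.

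miR-497a-5p, transcribed beside miR-195a and also a repressor of cyclins, had 124, 107 and 118 CPM in H/R-LV-BMAL1 libraries, against 64.8, 44.6 and 62.9 CPM in H/R-LV-NC libraries and 37.7, 67.5 and 49.7 CPM in LV-NC libraries. Its H/R-LV-BMAL1 values were again above all 6 others, while those of the other 2 groups were mixed. miR-195a-3p, the scarcer arm of its hairpin, had 32.8, 32.4 and 27.9 CPM in H/R-LV-BMAL1, 11.9, 22.3 and 16.6 CPM in H/R-LV-NC libraries, and 14.3, 17.4 and 19.2 CPM in LV-NC libraries. It rested on 110, 117 and 113 UMIs in H/R-LV-BMAL1 libraries but on only 16 to 24 in H/R-LV-NC libraries and 14 to 22 in LV-NC libraries. The exact Poisson 95% intervals of its counts, which cover counting error only, ran down to 23.0 CPM in H/R-LV-BMAL1 libraries and up to 35.2 CPM in H/R-LV-NC libraries, so single libraries were not always apart although the groups were.

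**Figure D1:**
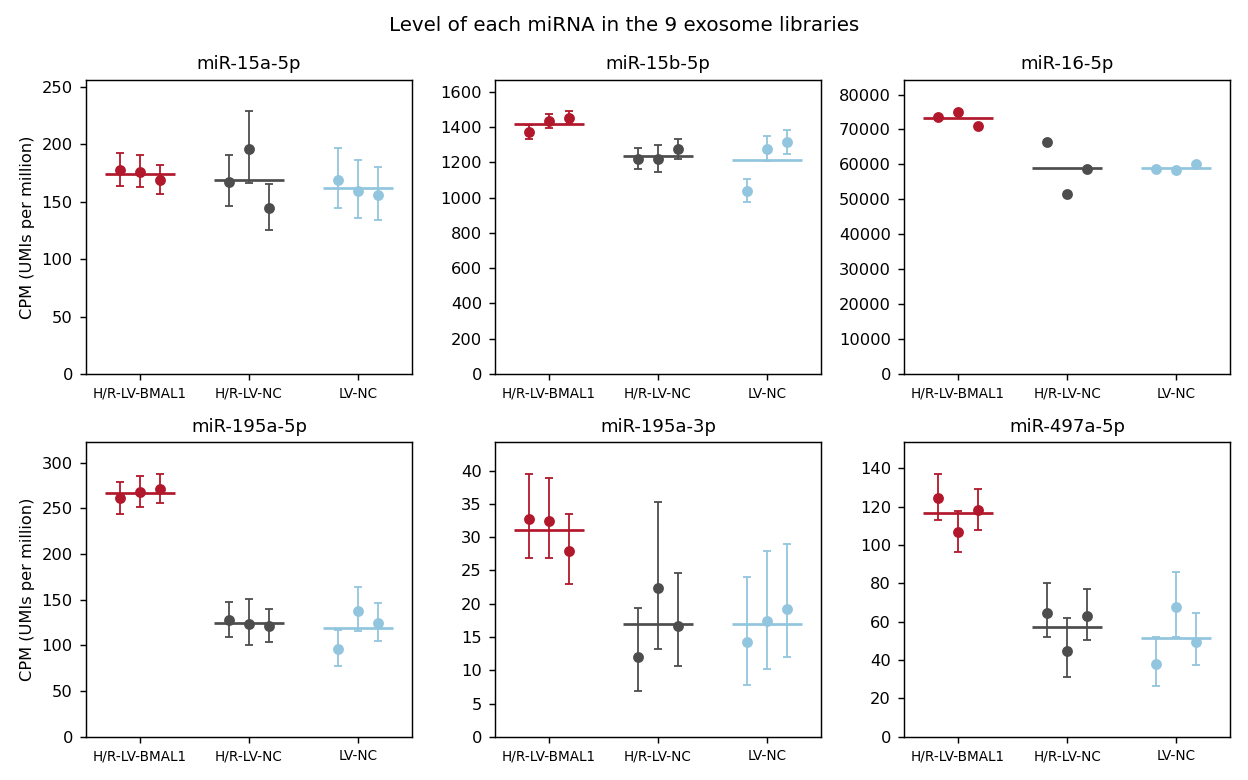
Level of each member (CPM, linear axes starting at 0) in the 9 libraries, with H/R-LV-BMAL1, H/R-LV-NC and LV-NC from left to right. Points are libraries 1 to 3 with exact Poisson 95% intervals of the count, and lines are group means: miR-195a-5p averaged 267 CPM in H/R-LV-BMAL1, 124 CPM in H/R-LV-NC libraries and 119.5 CPM in LV-NC libraries, whereas the 3 groups of miR-15a-5p overlapped.

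miR-16-5p, the most abundant member, had 73708, 74931 and 70926 CPM in H/R-LV-BMAL1 libraries, against 66464, 51673 and 58635 CPM in H/R-LV-NC libraries and 58679, 58323 and 59997 CPM in LV-NC libraries. The H/R-LV-BMAL1 values did not overlap with the others, and the H/R-LV-NC libraries lay on both sides of the LV-NC ones. miR-15b-5p had 1370, 1433 and 1451 CPM in H/R-LV-BMAL1 libraries, against 1218, 1220 and 1274 CPM in H/R-LV-NC libraries and 1038, 1278 and 1315 CPM in LV-NC libraries. miR-15b-5p was thus a little higher in every H/R-LV-BMAL1 library than in any other. miR-15a-5p, whose loss together with miR-16-1 is known from human chronic lymphocytic leukemia, had 178, 176 and 169 CPM in H/R-LV-BMAL1, 168, 196 and 144 CPM in H/R-LV-NC libraries, and 169, 159.6 and 156 CPM in LV-NC libraries. Its highest and its lowest value were both in H/R-LV-NC, and the H/R-LV-BMAL1 range lay inside that of H/R-LV-NC. In all, 5 of 6 members were higher in CPM in every H/R-LV-BMAL1 library than in any H/R-LV-NC library, a pattern seen in 4.76% of all tested miRNAs. Against LV-NC libraries it was also 5 of 6, a pattern seen in 6.18% of tested miRNAs.

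For the test, the UMI counts of 1682 miRNAs with enough counts, all 6 members among them, were compared by edgeR's quasi-likelihood test with Benjamini-Hochberg adjustment. The main scaling was TMM, which sets libraries level on the assumption that the bulk of miRNAs did not change, and scaling to total UMIs (as in CPM) was run beside it. Going to total UMIs moved the median over all tested miRNAs, in log2 fold change, by -0.83 in the BMAL1 comparison, -0.49 in the combined comparison and 0.36 in the H/R comparison. No source used here tells whether libraries of the same group were grown as separate cultures, so the p-values measure the spread between these libraries and no more.

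Against H/R-LV-NC, the 3 members of the chromosome 11 locus rose in H/R-LV-BMAL1 exosomes and the other 3 members did not pass the test. With 3 of 6 members called higher, the background was 2.14% of the tested miRNAs called higher. The called members are both arms of the miR-195a hairpin and their neighbour miR-497a-5p, so they do not count as separate observations. miR-195a-5p had a log2 fold change of 1.96 (SE 0.346, adjusted p = 0.0455 from edgeR), a fold of 3.89 on the TMM scale. miR-497a-5p had 1.82 (SE 0.404) and miR-195a-3p had 1.77 (SE 0.297), both with the same adjusted p of 0.0455 from edgeR. The remaining members had log2 fold changes of 1.13 (SE 0.297) for miR-16-5p, 1.06 (SE 0.302) for miR-15b-5p and 0.91 (SE 0.308) for miR-15a-5p, with adjusted p-values of 0.0628, 0.0721 and 0.0983 from edgeR in that order. On TMM-scaled values, 6 of 6 members were higher in every H/R-LV-BMAL1 library than in any H/R-LV-NC library, which held for 14.7% of tested miRNAs. For miR-195a-5p these values were 278, 365 and 486 in H/R-LV-BMAL1 libraries and 121, 72.4 and 96.5 in H/R-LV-NC ones. They lay further apart within each group than its CPM did. The median log2 fold change was 1.45 over the members and -0.04 over all tested miRNAs.

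Scaled to total UMIs, the same 6 values were smaller and all still positive. miR-195a-5p had a log2 fold change of 1.10 (SE 0.219, adjusted p = 0.0164 from edgeR) and miR-497a-5p had 1.01 (SE 0.301, adjusted p = 0.0331). miR-16-5p, at 0.31 (SE 0.0804), passed on this scale with an adjusted p of 0.0251 from edgeR. miR-195a-3p did not pass, with 0.89 (SE 0.332, adjusted p = 0.0667 from edgeR), nor did miR-15b-5p with 0.19 or miR-15a-5p with 0.04. Again 3 of 6 members were called higher, here against 2.26% of tested miRNAs called higher, and the median was 0.60 over the members and -0.87 over all tested miRNAs. miR-195a-5p and miR-497a-5p were the members called higher under both scalings.

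These calls rested on narrow margins. Without H/R-LV-BMAL1 1, edgeR gave adjusted p-values under 0.05 for all 6 members, where 7.31% of tested miRNAs were called higher, and leaving out any other of the 9 libraries gave 0 calls among the members and among all miRNAs. The log2 fold change of miR-195a-5p stayed between 1.69 and 2.15 over these 9 fits, that of miR-497a-5p between 1.51 and 2.09, and that of miR-195a-3p between 1.61 and 1.89. DESeq2 called 6 of 6 members higher, with 9.69% of tested miRNAs called higher, and limma-voom called the 3 chromosome 11 members, with 2.97%. RLE scaling, upper-quartile scaling, no filter on low counts, the 2 groups alone and a replicate block each gave 0 calls, with adjusted p-values of 0.0524 to 0.14 for the 3 chromosome 11 members.

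**Figure D2:**
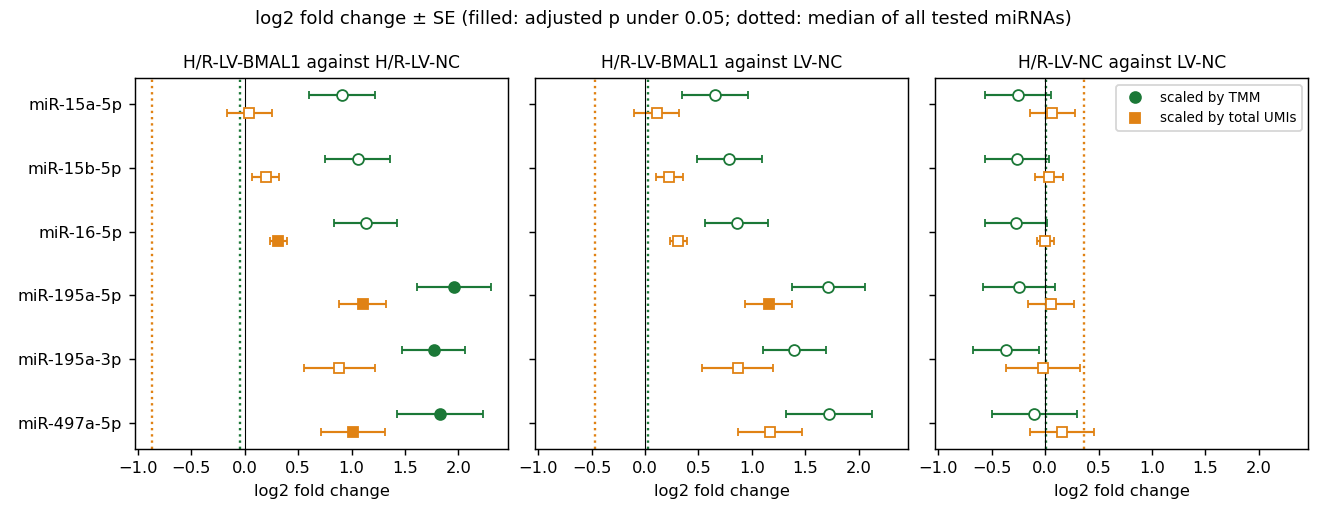
log2 fold change of each member in the 3 comparisons, on a shared linear axis, with TMM scaling as circles and scaling to total UMIs as squares. Bars are standard errors worked back from the F statistic of the test, filled symbols have an adjusted p under 0.05 from edgeR, and dotted lines mark the median of all tested miRNAs in the color of the scaling; in the BMAL1 comparison, miR-195a-5p stood at 1.96 with TMM and 1.10 with total UMIs, while miR-15a-5p stood at 0.91 and 0.04.

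Against LV-NC, H/R-LV-BMAL1 exosomes again had the chromosome 11 members highest in fold change, but no member was called with TMM scaling. This comparison and the preceding one share the H/R-LV-BMAL1 libraries, so they are not independent. The log2 fold changes were 1.72 (SE 0.344) for miR-195a-5p, 1.72 (SE 0.404) for miR-497a-5p and 1.40 (SE 0.297) for miR-195a-3p, each with an adjusted p of 0.0679 from edgeR. They were 0.86 for miR-16-5p, 0.79 for miR-15b-5p and 0.65 for miR-15a-5p, with adjusted p-values of 0.131 to 0.230 from edgeR. At an unadjusted p under 0.05 there were 5 of 6, all except miR-15a-5p, where 13.3% of tested miRNAs were higher at that level. The adjusted count of 0 of 6 stood beside 0.178% of tested miRNAs called higher, and leaving out H/R-LV-BMAL1 1 turned it into 3 of 6, beside 3.45% of tested miRNAs. DESeq2 called 4 members higher, all except miR-15a-5p and miR-15b-5p, and 5.77% of tested miRNAs. Scaled to total UMIs, only miR-195a-5p passed, with a log2 fold change of 1.16 (SE 0.219, adjusted p = 0.0209 from edgeR), where 1.66% of tested miRNAs were called higher.

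For hypoxia/reoxygenation alone, no member passed the test. In the H/R comparison, the log2 fold changes with TMM scaling ran from -0.37 for miR-195a-3p to -0.10 for miR-497a-5p, with adjusted p-values of 0.767 to 0.948 from edgeR. With total UMIs they ran from -0.02 to 0.16 and 4 of 6 were positive, so no direction could be given. Of all tested miRNAs, 0% were called in either direction by edgeR, with 86 higher and 35 lower at an unadjusted p under 0.05, and DESeq2 called 2 and limma-voom 0, none of them a member. For miR-195a-5p the log2 fold change of -0.24 was smaller than its SE of 0.337. The BMAL1 comparison and the H/R comparison share the H/R-LV-NC libraries, so values in the 2 comparisons are set side by side without a test of their relation.

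Because scaling changed the size of each difference, the members were also compared with each other inside a library, where scaling cancels. miR-195a-5p reached 0.354%, 0.358% and 0.382% of the miR-16-5p count in H/R-LV-BMAL1 libraries, against 0.192%, 0.240% and 0.206% in H/R-LV-NC ones and 0.163%, 0.237% and 0.208% in LV-NC libraries. The ratio was thus higher in each H/R-LV-BMAL1 library than in any other, by 1.72-fold against H/R-LV-NC (log2 difference 0.78) and by 1.81-fold against LV-NC (log2 difference 0.86). The exact two-sided permutation test gave p = 0.1 for both, the smallest value that 20 arrangements of 3 against 3 libraries allow, and 0.35 after Benjamini-Hochberg adjustment over 21 such tests. In the H/R comparison the log2 difference was 0.08 (exact permutation p = 0.7, adjusted 0.884). The 2 sequences differ at 2 bases, and no source used here tells how the authors assigned reads that fall between them.

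The ratio of miR-15a-5p to miR-16-5p went the other way. It was 0.241%, 0.235% and 0.238% in H/R-LV-BMAL1 libraries, against 0.252%, 0.379% and 0.246% in H/R-LV-NC ones and 0.289%, 0.274% and 0.260% in LV-NC libraries. The H/R-LV-BMAL1 libraries lay below all others, by little against H/R-LV-NC 1 and 3 and by much against H/R-LV-NC 2, with a log2 difference of -0.27 against H/R-LV-NC (exact permutation p = 0.1, adjusted 0.35) that shrank to -0.07 without H/R-LV-NC 2. The ratio of miR-15b-5p to miR-16-5p overlapped between the groups, with a log2 difference of -0.12 against H/R-LV-NC (exact permutation p = 0.4, adjusted 0.84).

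The proportion of the 2 chromosome 11 5p members overlapped between all groups. miR-497a-5p amounted to 47.7%, 39.8% and 43.5% of miR-195a-5p in H/R-LV-BMAL1 libraries, against 50.9%, 36.0% and 52.0% in H/R-LV-NC ones and 39.4%, 48.9% and 39.9% in LV-NC libraries. All 3 ranges overlapped, with a log2 difference of -0.07 in the BMAL1 comparison (exact permutation p = 0.8, adjusted 0.884). Over the 9 libraries, the log2 levels of miR-195a-5p and miR-497a-5p had a Pearson r of 0.982 with TMM scaling and 0.953 with total UMIs. miR-195a-3p, from the same locus, had 0.907 with TMM scaling and 0.728 with total UMIs beside miR-497a-5p. Members from separate loci reached like values, such as miR-15b-5p and miR-195a-5p with 0.959 under TMM and 0.857 with total UMIs. For miR-15a-5p and miR-15b-5p, also from separate loci, r was 0.943 with TMM scaling and -0.01 with total UMIs. These correlations describe 9 libraries that share groups and depth, and they do not separate members of the same locus from the others.

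**Figure D3:**
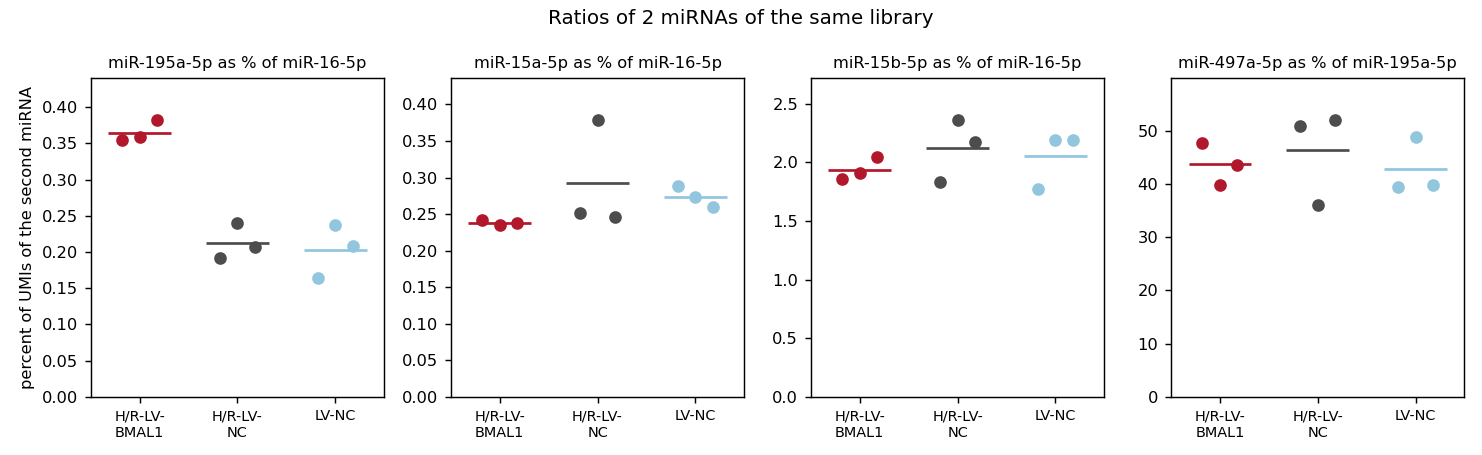
Ratios of members within a library, in percent of the UMIs of the second miRNA, with H/R-LV-BMAL1, H/R-LV-NC and LV-NC from left to right. Points are libraries and lines are group means, on linear axes that start at 0; miR-195a-5p lay at 0.354% to 0.382% of miR-16-5p in H/R-LV-BMAL1 and at 0.163% to 0.240% in the other 6 libraries, whereas miR-497a-5p to miR-195a-5p overlapped in all groups.

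The arms of the hairpins were compared next, since each hairpin gives a 5p and a 3p product. miR-195a-5p outnumbered miR-195a-3p by 7.97, 8.27 and 9.73 in H/R-LV-BMAL1 libraries, against 10.7, 5.56 and 7.29 in H/R-LV-NC ones and 6.71, 7.94 and 6.50 in LV-NC libraries. The H/R-LV-BMAL1 values lay within the H/R-LV-NC range (exact permutation p = 0.5, adjusted 0.884). They were above all LV-NC ones, barely so against LV-NC 2 (log2 difference 0.33, exact permutation p = 0.1, adjusted 0.35). miR-15b-5p outnumbered miR-15b-3p by 4.94, 5.20 and 5.83 in H/R-LV-BMAL1 libraries, against 7.18, 6.70 and 6.36 in H/R-LV-NC ones and 5.75, 8.22 and 8.11 in LV-NC libraries. The H/R-LV-BMAL1 ratios were below all H/R-LV-NC ones (log2 difference -0.34, exact permutation p = 0.1, adjusted 0.35) and reached into the LV-NC range.

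Accordingly, the 3p arm miR-15b-3p was called higher against H/R-LV-NC although its 5p partner was not, with a log2 fold change of 1.38 (edgeR, adjusted p = 0.0455), against 0.54 on total UMIs (adjusted p = 0.0623). Whether the 2 arms differed in this comparison was tested only by the ratio above. The 2 sources of miR-16-5p have 3p arms of different sequence, miR-16-1-3p from chromosome 14 and miR-16-2-3p from chromosome 3. miR-16-1-3p averaged 19.1 ± 2.68 CPM in H/R-LV-BMAL1, 15.9 ± 0.940 CPM in H/R-LV-NC libraries and 11.3 ± 1.69 CPM in LV-NC libraries (SD, n = 3). miR-16-2-3p averaged 104 ± 19.2 CPM in H/R-LV-BMAL1, 111 ± 4.06 CPM in H/R-LV-NC libraries and 139.6 ± 23.6 CPM in LV-NC libraries (SD, n = 3). Neither passed against H/R-LV-NC, since edgeR gave log2 fold changes of 1.08 at an adjusted p of 0.0884 and 0.80 at an adjusted p of 0.194. miR-15a-3p had 1 to 11 UMIs and miR-497a-3p 1 to 21 UMIs in a library, too few to enter the test. miR-497a-3p, also of the chromosome 11 locus, averaged 3.91 CPM in H/R-LV-BMAL1, 2.89 in H/R-LV-NC and 4.03 in LV-NC libraries.

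The 5 members with the shared seed were then added up, as a measure of how much of the counted exosomal miRNA carries AGCAGCA at bases 2 to 8. They made up 7.56%, 7.69% and 7.29% of all miRNA UMIs in H/R-LV-BMAL1 libraries, against 6.80%, 5.33% and 6.02% in H/R-LV-NC ones and 6.002%, 5.997% and 6.16% in LV-NC libraries. The share was highest in the 3 H/R-LV-BMAL1 libraries, with means of 7.52% ± 0.203 there, 6.05% ± 0.740 in H/R-LV-NC libraries and 6.05% ± 0.0953 in LV-NC (SD, n = 3). miR-16-5p alone accounted for 97.0% to 97.8% of the sum in every library. miR-195a-5p contributed 0.355% of it in H/R-LV-BMAL1, 0.207% in H/R-LV-NC libraries and 0.197% in LV-NC libraries on average, so the member with the largest fold change made up a very small part of the seed.

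**Figure D4:**
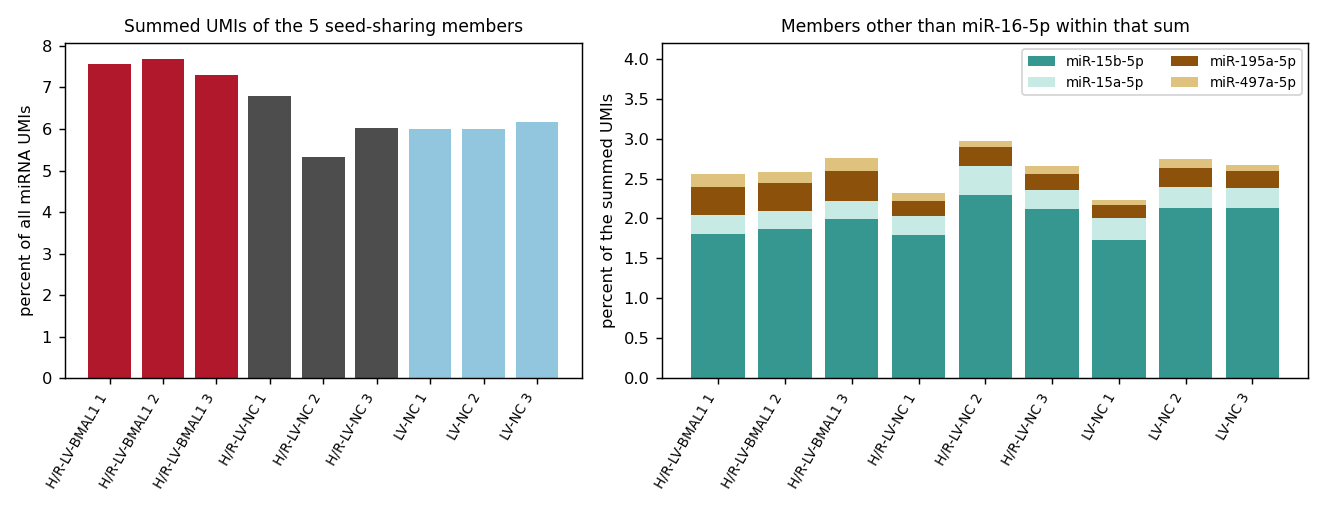
Left, the summed UMIs of the 5 seed-sharing members in percent of all miRNA UMIs of each library. Right, the members other than miR-16-5p in percent of that sum, stacked, with the libraries of H/R-LV-BMAL1, H/R-LV-NC and LV-NC from left to right in both panels; the left bars are tallest in H/R-LV-BMAL1, at 7.29% to 7.69%, and the miR-195a-5p band is thickest there, at 0.345% to 0.372% of the sum.

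Among the 1679 listed miRNAs with a RefSeq sequence, another 5 carry the same bases 2 to 8, namely miR-322-5p, miR-195b, miR-6342, miR-6353 and miR-6419. The remaining listed miRNAs, miR-1907 among them, had no such sequence, so their seeds could not be read and further seed mates may be missing here. Of the 5 found, only miR-322-5p, the mouse counterpart of human miR-424 and also a repressor of cell-cycle genes, was abundant. Its sequence shows the common seed and differs from miR-15b-5p at 6 of 22 bases, 5 of them after base 8.
mmu-miR-322-5p: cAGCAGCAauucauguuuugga
mmu-miR-195b: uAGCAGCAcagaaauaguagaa
miR-322-5p averaged 1278 ± 86.6 CPM in H/R-LV-BMAL1, 1376 ± 155 CPM in H/R-LV-NC libraries and 1177 ± 35.5 CPM in LV-NC libraries (SD, n = 3). The H/R-LV-BMAL1 range overlapped with both others in CPM, whereas the H/R-LV-NC values were all above those of LV-NC. Its log2 fold change against H/R-LV-NC was 0.77 with TMM scaling (adjusted p = 0.132 from edgeR) and -0.11 with total UMIs (adjusted p = 0.521). miR-195b, 3 of 21 bases different from miR-195a-5p, had only 6 to 14 UMIs in H/R-LV-BMAL1, 4 to 20 in H/R-LV-NC libraries and 4 to 7 in LV-NC libraries, and miR-6353 had 1 to 10 in a library. Neither could be tested. miR-6419 had a log2 fold change of -1.23 (adjusted p = 0.14 from edgeR) with TMM scaling and was called lower with total UMIs at -2.17 (adjusted p = 0.0228), and miR-6342 had -0.11, so 0 of the 3 testable seed mates were called higher. miR-497b, from a hairpin on the opposite strand over Mir497, has another seed and had a log2 fold change of 0.28 with TMM scaling and -0.51 with total UMIs, and neither passed. Together the 5 made up 1.69% of the summed seed UMIs in H/R-LV-BMAL1, 2.33% in H/R-LV-NC libraries and 1.95% in LV-NC libraries.

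The member changes were set beside those of other miRNAs that restrain the cell cycle and of miRNAs of like abundance. Of 14 such miRNAs that are not members, all tested, 5 were called higher and 0 lower against H/R-LV-NC: miR-29a-3p at 1.58, miR-26a-5p and miR-34a-5p at 1.46 each, miR-26b-5p at 1.29 and miR-143-3p at 1.28 (log2, adjusted p = 0.0455 each from edgeR). Their median log2 fold change was 1.06 with TMM scaling and 0.21 with total UMIs, the same 5 were called higher with total UMIs, and miR-322-5p is in this list too. Against LV-NC, 0 of the 14 were called with TMM scaling, and with total UMIs 4 were called higher (miR-29a-3p, miR-34a-5p, miR-26a-5p and miR-26b-5p) and 1 lower (miR-145a-5p). The 81 miRNAs with a mean of at least 1000 CPM had a median log2 fold change of 1.01 against H/R-LV-NC, with 21 called higher, and the 205 between 100 and 1000 CPM had 0.46, with 9 called higher. The values of miR-16-5p and miR-15b-5p, at 1.13 and 1.06, lay near the median of the abundant class, and of the 2 members with a mean in the lower class, miR-195a-5p had 1.96 and miR-15a-5p had 0.91, both above that median. With total UMIs the abundant class had a median of 0.17, with 25 called higher and 14 lower, and the lower class had -0.39, with 12 called higher and 55 lower, so the direction of the lower class turned with the scaling.

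The miRNAs whose TMM-scaled log2 levels ran most alike over the 9 libraries were found for each 5p member outside the seed group. For miR-195a-5p they were miR-21a-5p (Pearson r = 0.990, or 0.972 with total UMIs), miR-301a-3p (0.986, or 0.933) and miR-421-3p (0.984, or 0.939). For miR-497a-5p they were miR-152-3p (0.984, or 0.934), miR-203-3p (0.980, or 0.902) and miR-199a-5p (0.977, or 0.908). For miR-16-5p the nearest was miR-25-3p (0.988, or 0.861) and for miR-15b-5p it was miR-23b-3p (0.993, or 0.952). For miR-15a-5p it was miR-30e-3p, with 0.991 under TMM but 0.507 with total UMIs, so that likeness followed the scaling. The libraries share groups and depth, and these values are descriptions over 9 points.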

How the data were processed

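Exosomal small RNA was sequenced in 9 libraries, prepared with a kit that attaches UMIs. Both UMI counts and CPM were deposited, for 1978 mature miRNAs, and the deposited CPM are each library's UMI counts scaled to its total. The tools named in the submitters' processing notes are Bowtie 1.3.0, cutadapt 2.7 and edgeR without a version. Their roles, the genome build and the handling of reads matching several miRNAs are not given in the sources used here. Groups came from the labels, and no count column was left out.

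UMI counts were analysed with edgeR 4.0.16 in R 4.3.3. miRNAs were kept by filterByExpr, which left 1682 (99.9% of UMIs) and removed 296. A quasi-likelihood fit over all 9 libraries, with a mean for each group and TMM scaling (factors 0.558 to 0.940 in H/R-LV-BMAL1, 1.05 to 1.72 in H/R-LV-NC, 1.03 to 1.07 in LV-NC), gave fold changes, with Benjamini-Hochberg adjustment over all tested miRNAs and calls at an adjusted p under 0.05. The SE given with a log2 fold change is its absolute value divided by the square root of the quasi-likelihood F statistic. The comparison steps were tested on simulated data. Alternatives were DESeq2 1.42.0, limma-voom (limma 3.58.1), RLE, upper-quartile and total-UMI scaling, a filter at a mean of 50 UMIs, no filter, a fit of the 2 groups alone, a replicate block and leaving out each library. Ratios within a library used a prior of 0.5 UMI and exact two-sided permutation tests. Log2 levels used for correlations had a prior count of 2. Libraries of the same group differed by more than sampling noise (chi-square over its degrees of freedom between 9.80 and 156), so none was counted as a copy. RefSeq sequences matched 1679 of the miRNAs and all 6 members, and 1671 deposited positions equal the RefSeq GRCm38 ones. Gene annotation was GENCODE (GRCm38). Python 3.11.15 was used with scipy 1.17.1, matplotlib 3.10.9, pandas 2.3.3 and numpy 2.4.6.

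The 6 members were always named, with the other arms of their hairpins and the called members of the cell-cycle list. Named too was every miRNA of the same bases 2 to 8 among the 1679 with a RefSeq sequence, and the others could not be checked for the seed. The 3 miRNAs most like each 5p member were also found, of which the text gives the first for some. The rule that picks the members goes by name and uses no measured value, but the family and the lists were proposed with earlier results of these data known, so the choice is not independent of them.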

Additional observations from a re-analysis of the deposited data

How the results depend on the processing

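In the BMAL1 comparison, RLE scaling, upper-quartile scaling, no filter, the 2 groups alone and the replicate block each gave 0 calls among the members and 0 among all miRNAs, against 3 and 40 in the fit reported. The adjusted p of the 3 chromosome 11 members was then 0.0524 to 0.14 and their log2 fold changes 1.75 to 2.02. DESeq2 called 6 members and 240 miRNAs, a filter at a mean of 50 UMIs 72 miRNAs, and total UMIs 519, of which 38 were higher and 481 lower, against 36 and 4 with TMM. Leaving out 1 library gave 0 to 6 members and 0 to 139 miRNAs. In the combined comparison, total UMIs and the filter at 50 UMIs each called 1 member, DESeq2 called 4, and leaving out 1 library gave 0 to 3. Over all miRNAs this comparison gave 4 calls, against 105 with total UMIs (28 higher, 77 lower), 145 with DESeq2, 10 with the filter at 50 UMIs, 2 with upper quartiles, 2 with no filter, 1 with the 2 groups alone, and 0 to 66 with 1 library left out. In the H/R comparison, no alternative called a member, and the calls over all miRNAs were 1 with total UMIs, 2 with DESeq2 and 0 to 1 with 1 library left out. Total UMIs turned the sign for miR-15a-5p (0.0666), miR-15b-5p (0.0332), miR-195a-5p (0.0544) and miR-497a-5p (0.16), and the last ran over -0.38 to 0.20 with 1 library left out. Small log2 ratio differences turned sign when 1 library was left out: in the H/R comparison miR-195a-5p/miR-16-5p (-0.0675 to 0.20), miR-15a-5p/miR-16-5p (-0.14 to 0.17), miR-15b-5p/miR-16-5p (-0.0536 to 0.15) and miR-195a-5p/miR-195a-3p (-0.14 to 0.33), in the BMAL1 comparison miR-497a-5p/miR-195a-5p (-0.24 to 0.0175) and miR-195a-5p/miR-195a-3p (-0.00586 to 0.46), and in the combined comparison miR-497a-5p/miR-195a-5p (-0.0372 to 0.13) and miR-15a-5p/miR-15a-3p (-0.27 to 0.56). The ratio of miR-195a-5p to miR-16-5p stayed at 0.71 to 0.87 in the BMAL1 comparison and 0.71 to 0.98 in the combined comparison. The cause of these changes was not tested. Libraries of the same replicate number correlated at -0.16 to 0.13 in their deviations from the group means, so the numbers were not taken to pair them.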
